A study of Mus musculus with 4 samples.

Results

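The genes described here encode the receptors and adaptors through which a B cell senses LPS and other microbial products. They are the LPS receptor TLR4 (Tlr4) with its co-receptors MD-2 (Ly96) and CD14 (Cd14), the related receptor RP105 (Cd180) with its partner MD-1 (Ly86), the receptors Tlr2, Tlr7 and Tlr9, and the adaptors Myd88 and Ticam1. They were chosen by symbol, by a rule that uses no measured value, but with earlier results of these data known. All 10 were found among the 30041 genes listed for each sample. RNA-seq was carried out on 2 control and 2 cKO samples of splenic B cells, numbered 1 and 2 in each group, on the C57BL/6 background. By the study's methods, control mice were Nfkbiz fl/Δ and cKO mice were Nfkbiz fl/Δ Mb1 cre/+, so that all 4 samples carried 1 deleted allele of Nfkbiz, the gene of the nuclear protein IκB-ζ, and cKO samples carried in addition Cre, which deletes the floxed allele in the B lineage, driven by the Cd79a (Mb1) promoter. No sample carried Cre without the floxed allele, and the effects of Cre and of IκB-ζ loss therefore cannot be told apart. B cells had been isolated by depletion of cells bearing CD43, CD4 or Ter-119 and were cultured with LPS for 72 h. The labels give the dose of LPS as 20 mg/ml, and the methods give the same figure in μg/ml. No unstimulated sample was analysed here.

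LPS is carried by CD14 to the TLR4/MD-2 complex on the cell surface. TLR4 then signals through MyD88 and, after uptake, through TRIF, the product of Ticam1. B cells also bear RP105/MD-1, a complex that resembles TLR4/MD-2 but lacks a TIR signalling domain, and in B cells RP105 is known to promote the response to LPS. TLR2 recognizes bacterial lipoproteins as a heterodimer with TLR1 or TLR6, whereas TLR7 and TLR9 sense RNA and unmethylated CpG DNA in endosomes, and all of them depend on MyD88. IκB-ζ itself is induced by TLR ligands and acts with NF-κB in the nucleus.

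The deposited value is a score per gene, without a stated unit. The scores of a sample summed to between 604.2 and 637.6. Low scores multiplied by exon length clustered at whole multiples of a step, with 75.4 to 81.9% of them within 0.2 of a whole number, as values divided by exon length and library size would. Only genes with 1 annotated transcript and an exon length in a set range were used for this. The step was chosen as the one at which the clustering was strongest, so part of the clustering follows from that choice. If 1 step is 1 read, the libraries held 17840000 and 18340000 reads in the controls and 19920000 and 17520000 in cKO samples. These depths are inferred, and reads per gene given below are approximate. The targeted gene Nfkbiz had scores of 0.0241 and 0.0226 in the controls, against 0.0127 and 0.0116 in cKO samples. Its log2 fold change was -0.94 (standard error, SE, 0.096, limma adjusted p = 0.0282). The adjusted p of Nfkbiz was 0.130 without cKO 1, 0.0885 without cKO 2, 0.203 with no filter and 0.0509 without the variance trend. Xist was high in every sample (0.0924 to 0.109). Of the Y-linked genes, Eif2s3y was at 0 in all samples and Kdm5d was above 0 only in control 2 (4e-05). The Y-linked Ddx3y had scores of 0.00405 to 0.00592 and Uty of 0.00037 to 0.00068.

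No gene of the set passed the test for a difference between cKO and control B cells. The test was a moderated test in limma of log2(score + 0.0001), adjusted by Benjamini-Hochberg over the genes tested, and log2 fold changes are on that scale. Of the 10 genes, 7 reached a score of 0.005 in some sample and were tested among 9727 genes. Of these 0 had an adjusted p under 0.05, and 2 had an unadjusted p under 0.05. Over all 9727 genes 2.07% were called by the adjusted p and 22.3% had an unadjusted p under 0.05. Tlr4, Ly96 and Cd14 did not reach a score of 0.005 and were tested with a lower filter of 0.001, which all 10 genes passed in each of the 4 samples. In that fit, over 13229 genes, 0 of the 10 were called against 1.32% of all genes, and 3 of the 10 had an unadjusted p under 0.05 against 20.4% of all genes. The groups did not overlap for 7 of the 10 genes, 4 being higher and 3 lower in both cKO samples. Of the 13229 genes 55.5% did not overlap, 27.7% being higher and 27.8% lower. Of the 7 genes past the higher filter 6 did not overlap, against 58.2% of the 9727 genes. The median log2 fold change of the 10 genes was 0.09 (over all genes -0.0044) and the median of its absolute value was 0.21 (over all genes 0.17). With 2 samples a group the smallest two-sided p of an exact permutation test is 0.33, and that test was not used. In bulk RNA, fewer cells of a type and less RNA per cell cannot be told apart.

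**Figure D1:**
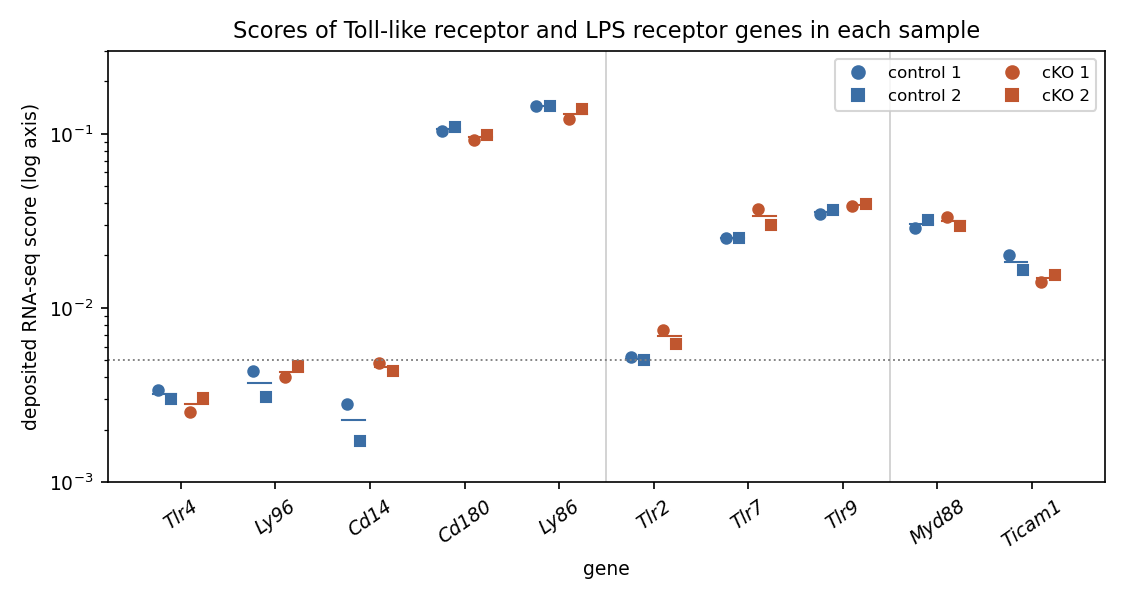
Deposited score of each of the 10 genes in the 2 control (blue) and 2 cKO (orange) samples, on a log axis, with circles for samples numbered 1, squares for samples numbered 2 and short bars for group means. The dotted line is the score of 0.005 used as a filter, and Cd180 and Ly86 lie above 0.09 in all samples while Tlr4, Ly96 and Cd14 lie below 0.005.

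Tlr4, the signalling chain of the LPS receptor, was low in all samples and did not separate the groups. On NCBIM37, the assembly that corresponds to mm9, it lies on the plus strand of chromosome 4 from 66488618 to 66591318 (gene ID 21898). Tlr4 scores were 0.00336 and 0.00301 in the controls (mean ± SD 0.00319 ± 0.00025, n = 2), against 0.00254 and 0.00305 in cKO samples (0.0028 ± 0.00036, n = 2). The score of cKO 2 lay between the control samples. The log2 fold change was -0.19 (95% interval -0.62 to 0.24, limma adjusted p = 0.580). That interval runs from 0.652-fold to 1.19-fold, so a loss of Tlr4 mRNA to 0.5-fold lies outside it. At an exon length of 5556 bases the scores correspond to about 281 to 333 reads per sample.

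Ly96 encodes MD-2, the secreted subunit that holds the lipid part of LPS on TLR4. It lies on the plus strand of chromosome 1 from 16678537 to 16699686 (gene ID 17087). Ly96 scores were 0.00436 and 0.00306 in the controls, against 0.004 and 0.00462 in cKO samples, and the groups overlapped. The control samples differed by 1.41-fold, more than the fitted difference between the groups of 1.17-fold (95% interval 0.822 to 1.67, limma adjusted p = 0.563). With about 34 to 49 inferred reads per sample, counting alone gives a relative error of 14.3 to 17.1%.

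Cd14, which hands LPS to TLR4/MD-2 and is best known from monocytes and macrophages, had the largest difference of the 10 genes. It is located on chromosome 18, minus strand, from 36884728 to 36886390 (gene ID 12475). Cd14 scores were 0.00281 and 0.00173 in the controls (mean ± SD 0.00227 ± 0.00076, n = 2), against 0.00484 and 0.00433 in cKO samples (0.00459 ± 0.00036, n = 2). Both cKO scores were above both control scores, and the control samples differed by 1.59-fold from each other. The log2 fold change was 1.02 (SE 0.250, 95% interval 0.40 to 1.64) and the limma adjusted p was 0.123, so Cd14 did not pass the threshold. A fold change of at least 3.19 would have been called at this standard error. By the ratio of geometric means, 2.08, Cd14 exceeded 2-fold, which 2.41% of the 13229 genes did. The scores stand for about 79 and 50 reads in the controls (exact Poisson intervals 62.5 to 98.5 and 37.1 to 65.9, counting error only) and 152 and 119 reads in cKO samples (128.8 to 178.2 and 98.6 to 142.4).

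The RP105 complex was the most abundant of the receptors measured. Cd180 (RP105) lies on the plus strand of chromosome 13 from 103483638 to 103529709 (gene ID 17079), and Ly86 (MD-1) on the same strand of chromosome 13 from 37437214 to 37510905 (gene ID 17084). Cd180 scores were 0.104 and 0.109 in the controls, against 0.0927 and 0.0979 in cKO samples. Both cKO scores were slightly below both control scores, and the log2 fold change was -0.16 (SE 0.081, 95% interval -0.36 to 0.04, limma adjusted p = 0.298). Ly86 scores were 0.145 and 0.144 in the controls, against 0.122 and 0.139 in cKO samples. Here too the cKO scores were lower, giving a log2 fold change of -0.15 (95% interval -0.38 to 0.07, limma adjusted p = 0.374). Of all genes tested 30.1% had both cKO scores below both control scores. The limits on these abundant genes were tight, since the intervals end at 0.778-fold for Cd180 and 0.769-fold for Ly86, and differences of 1.41-fold and 1.47-fold would have been called. The ratio of Cd180 to Ly86 scores was 0.720 and 0.758 in the controls, against 0.760 and 0.707 in cKO samples, and the groups overlapped in this ratio. An exon of Cd180 overlaps Mast4 on the opposite strand, and 3.3% of the read-length windows of Cd180 transcripts match Mast4 transcripts. Mast4 scores were 0.00609 to 0.00951, far below those of Cd180.

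Tlr2 and Tlr7 were higher in both cKO samples without passing the adjusted threshold. Tlr2 is located on chromosome 3, minus strand, from 83640195 to 83645689 (gene ID 24088) and had scores of 0.00522 and 0.005 in the controls, against 0.0075 and 0.00624 in cKO samples. The cKO samples differed by 1.20-fold from each other and the control samples by 1.04-fold. Its log2 fold change was 0.41 (SE 0.157, 95% interval 0.03 to 0.80, limma adjusted p = 0.208). Tlr7, on chromosome X, minus strand, from 163742861 to 163768490 (gene ID 170743), had scores of 0.0251 and 0.0251 in the controls, against 0.037 and 0.0301 in cKO samples. The control samples were nearly equal and cKO 1 stood above cKO 2, with a log2 fold change of 0.41 (SE 0.118, 95% interval 0.12 to 0.70, limma adjusted p = 0.139). Without cKO 1 the log2 fold change of Tlr7 was 0.26, and without cKO 2 it was 0.56. The ratio of Tlr7 to Tlr2 scores was 4.80 and 5.03 in the controls, against 4.93 and 4.82 in cKO samples.

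Tlr9, the receptor for CpG DNA, lies on the plus strand of chromosome 9 from 106124929 to 106129207 (gene ID 81897). Tlr9 scores were 0.0346 and 0.0363 in the controls, against 0.0384 and 0.0397 in cKO samples. The groups did not overlap, but the difference was small, with a log2 fold change of 0.14 (SE 0.083, 95% interval -0.06 to 0.34, limma adjusted p = 0.366). Of the 7 genes past the higher filter, 3 had both cKO scores above both control scores, as did 28.1% of all genes tested. A lower level of Tlr9 mRNA than 0.956-fold lies outside the interval. No read-length window of Tlr2, Tlr7 or Tlr9 transcripts matched a transcript of another gene (0 windows each).

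Myd88, the adaptor that most Toll-like receptors share, was the least different of the genes. It is located on chromosome 9, minus strand, from 119245052 to 119250529 (gene ID 17874) and had scores of 0.0288 and 0.0321 in the controls, against 0.0333 and 0.0296 in cKO samples. The groups overlapped, and the log2 fold change was 0.05 (95% interval -0.21 to 0.30, limma adjusted p = 0.816). Acaa1a overlaps its exons on the opposite strand, with 1.53% of the windows of Myd88 transcripts shared and scores of 0.0193 to 0.0254. Ticam1, whose product TRIF serves TLR4 and TLR3, is located on chromosome 17, minus strand, from 56408742 to 56416209 (gene ID 106759). Ticam1 scores were 0.0202 and 0.0164 in the controls, against 0.0142 and 0.0154 in cKO samples. The cKO scores lay below those of both controls, and the controls differed by 1.23-fold. The log2 fold change was -0.30 (SE 0.125, 95% interval -0.61 to 0.01, limma adjusted p = 0.233). It was -0.15 without control 1 and -0.45 without control 2, the latter with a limma adjusted p of 0.0764. The ratio of Myd88 to Ticam1 scores was 1.43 and 1.95 in the controls, against 2.35 and 1.92 in cKO samples, and the groups overlapped.

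**Figure D2:**
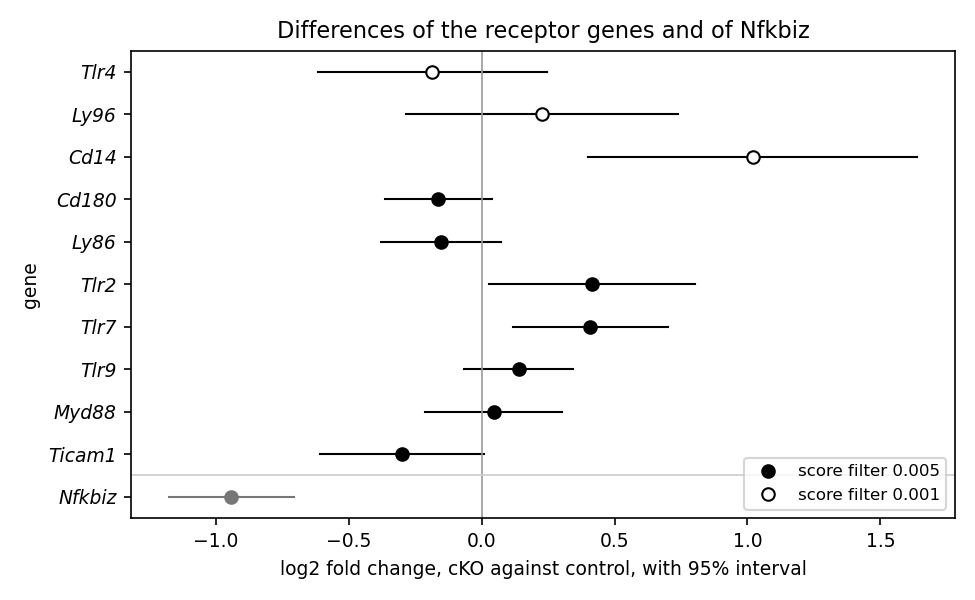
Log2 fold change of cKO against control B cells for the 10 genes and Nfkbiz (points) with its 95% interval from limma (lines), with open points for the 3 genes tested with the lower filter. Nfkbiz lies at -0.94, and the intervals of Tlr4, Ly96, Cd180, Ly86, Tlr9, Myd88 and Ticam1 include 0.

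The genes differed far more from each other in level than between the groups. On the score, which behaves as a value per exon base, Ly86 was highest, followed by Cd180, Tlr9, Myd88, Tlr7, Ticam1, Tlr2, Ly96, Cd14 and Tlr4. The ranges over the 4 samples did not overlap between neighbours in this order except between Myd88 and Tlr7, between Ly96 and Cd14, and between Cd14 and Tlr4. Ly86 exceeded 96.8 to 97.1% of the genes with a score above 0 in a sample, Cd180 exceeded 95.7 to 96.1% and Tlr4 exceeded 44.6 to 46.7%. The score of Cd180 was 31.0 and 36.3 times that of Tlr4 in the controls, against 36.5 and 32.1 times in cKO samples. The score of Ly86 was 33.2 and 47.1 times that of Ly96 in the controls, against 30.5 and 30.0 times in cKO samples. The groups overlapped for the former ratio, while for the latter both cKO ratios were below both control ratios, and control 2, the sample with the lowest Ly96 score, stood apart. Because the exon length used by the authors is not stated, these ratios depend on their gene models.

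The other genes of the pathway were counted from a list of 45 genes, of which 36 passed the filter of 0.005. Of these 1 was called higher and 0 lower in cKO B cells, against 0.812% and 1.25% of all genes tested. An unadjusted p under 0.05 was found for 11 of the 36, against 22.3% of all genes tested. By the ratio of geometric means 0 of the 36 differed by more than 2-fold, against 2.02% of all genes tested. The gene that rose was Ctsb, the lysosomal protease cathepsin B, one of the proteases known to cleave endosomal Toll-like receptors. Ctsb scores were 0.0654 and 0.0738 in the controls, against 0.128 and 0.112 in cKO samples. This gave a log2 fold change of 0.78 (SE 0.107, limma adjusted p = 0.0362), and both cKO scores were above both control scores. The call was lost without cKO 1 (limma adjusted p = 0.203), without cKO 2 (0.0885), with no filter (0.205) and without the variance trend (0.0719). Fdft1, an enzyme of sterol synthesis, overlaps Ctsb on the opposite strand. Windows shared with Fdft1 made up 15.6% of the windows of the Ctsb transcript, and Fdft1 scores were 0.0554 and 0.0504 in the controls, against 0.0272 and 0.0323 in cKO samples, a difference in the other direction.

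Among the trafficking genes, 10 of 10 were tested and 1, Ctsb, was called higher, against 0.812% of all genes tested. An unadjusted p under 0.05 in limma was found for 6 of the 10, against 22.3% of all genes tested. Both cKO scores were above both control scores for 6 and below them for 1, against 28.1% and 30.1% of all genes tested. Unc93b1, the chaperone that delivers TLR7 and TLR9 to endosomes, had scores of 0.186 and 0.196 in the controls, against 0.181 and 0.189 in cKO samples (log2 fold change -0.05, 95% interval -0.24 to 0.15). Cnpy3, a co-chaperone needed for folding of Toll-like receptors, was at 0.0452 and 0.0461 against 0.0452 and 0.0465 (log2 fold change 0.01, 95% interval -0.19 to 0.20). For Hsp90b1, the ER chaperone gp96 on which Toll-like receptors depend for folding, the log2 fold change was -0.47 (95% interval -0.83 to -0.12, limma adjusted p = 0.152). The scores of Hsp90b1 were 0.253 and 0.199 in the controls, against 0.148 and 0.177 in cKO samples. Slc15a4, an endolysosomal transporter required for TLR7 and TLR9 responses, had scores of 0.0261 and 0.0287 in the controls, against 0.0405 and 0.0361 in cKO samples. Its log2 fold change was 0.48 (limma adjusted p = 0.0847). The remaining genes of this group had log2 fold changes of 0.04 for Lrrc33, 0.26 for Lgmn, 0.27 for Cnpy4, 0.33 for Ctss and 0.43 for Ctsl, none of which was called.

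TLR1 and TLR6, the partners of TLR2, were lower in both cKO samples. Tlr1 scores were 0.0325 and 0.0318 in the controls, against 0.0187 and 0.0253 in cKO samples (log2 fold change -0.56, 95% interval -0.93 to -0.19, limma adjusted p = 0.124). Tlr6 scores were 0.0119 and 0.0119 in the controls, against 0.00669 and 0.00894 in cKO samples (log2 fold change -0.62, 95% interval -1.002 to -0.23, limma adjusted p = 0.116). These values may not be independent, because the genes are neighbours on chromosome 5 and share 541 read-length windows. Those are 20.7% of the windows of Tlr1 and 21.1% of the windows of Tlr6. How reads from shared windows entered the score is not stated. Neither gene passed the threshold. Tlr12 had scores of 0.00161 to 0.00229 with overlapping groups, and Tlr3, Tlr8 and Tlr13 stayed below 0.001, while Tlr5 and Tlr11 were listed at 0 in all samples. Of the other adaptors 3 were tested, of the kinases and ubiquitin ligases 18, and of the interferon regulatory factors 3. Of these 0 were called, with 1 adaptor (Ticam2) and 2 kinases or ligases at an unadjusted p under 0.05. Dropping each sample in turn gave Ctsb a log2 fold change of 0.69 to 0.88. The range was 0.40 to 0.56 for Slc15a4, 0.20 to 0.46 for Ctss and -0.65 to -0.30 for Hsp90b1.

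**Figure D3:**
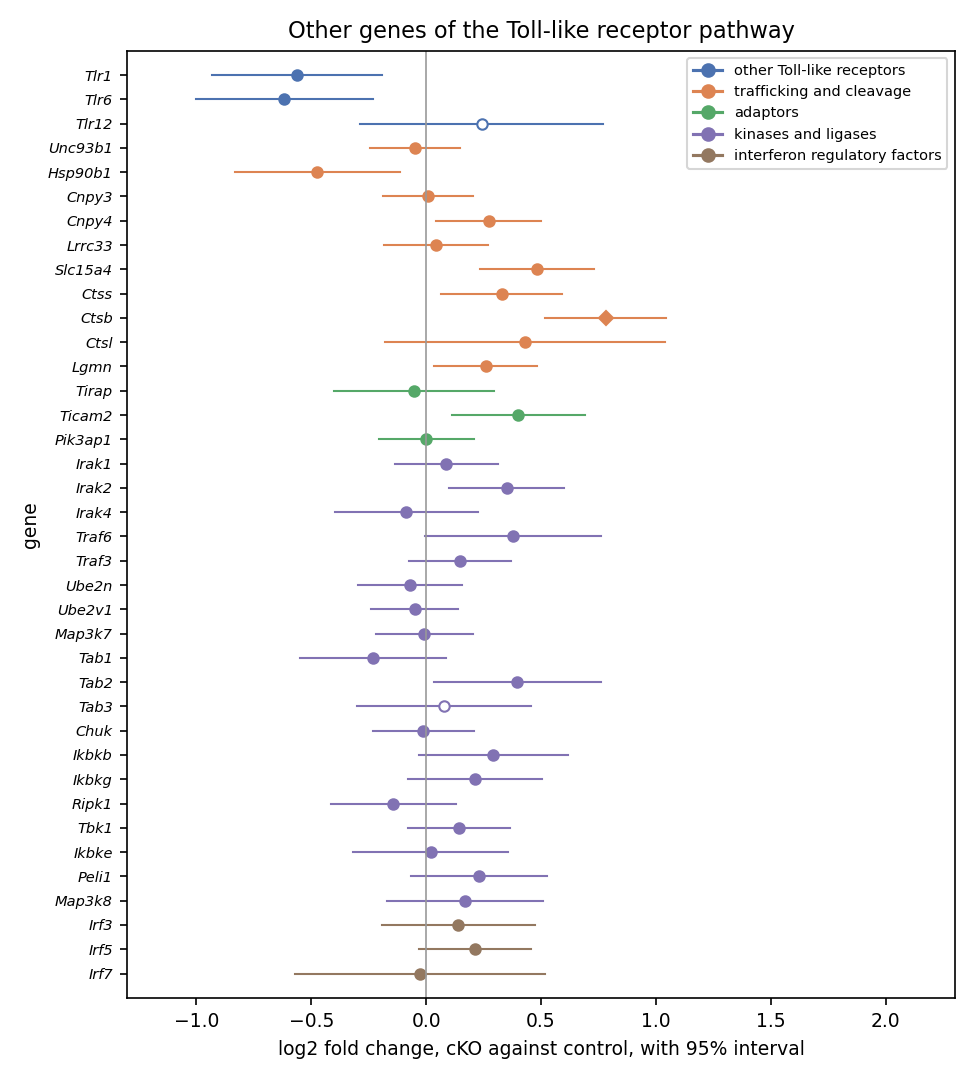
Log2 fold change of cKO against control B cells (points) with its 95% interval from limma (lines) for the 38 other pathway genes that passed a filter, coloured by role, with open points for genes tested with the lower filter and a diamond for the gene called. Ctsb lies at 0.78, and Tlr1 and Tlr6 lie at -0.56 and -0.62.

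Cd14 and Tlr2 are also expressed by myeloid cells, and markers of other cells were therefore measured in the same samples. The 10 B-lineage markers used were expressed in all samples, with sums of 2.57 and 2.87 in the controls, against 2.36 and 2.36 in cKO samples, and 2 of them, Cd79a and Fcer2a, were called lower, against 1.25% of all genes tested. Fcer2a was not called with the lower filter (limma adjusted p = 0.0507). In both cKO samples 7 of the 10 were lower than in either control and 2 were higher, against 30.1% and 28.1% of all genes tested. The 2 higher ones were Cd79b (log2 fold change 0.28) and Blk (0.48), neither of which was called. Cd79a, whose promoter drives Cre, had scores of 0.667 and 0.743 in the controls, against 0.415 and 0.407 in cKO samples. It fell with a log2 fold change of -0.78 (limma adjusted p = 0.0294). The cKO genotype, Mb1 cre/+, carries Cre as an allele of this gene. The effect of that allele on Cd79a cannot be told apart from that of IκB-ζ loss. The fall of Cd79a made up most of the difference between the groups in the sums of B-lineage markers, and without Cd79a those sums overlapped. Of 19 myeloid markers, 7 passed the filter of 0.005 and 1 was called, against 2.07% of all genes tested. It was Fcer1g, the Fc receptor gamma chain, which rose with a log2 fold change of 1.66 (SE 0.250, limma adjusted p = 0.0420, and 0.0507 with the lower filter). Lyz2, lysozyme M, had scores of 0.0205 and 0.0112 in the controls, against 0.0485 and 0.0329 in cKO samples (log2 fold change 1.39, limma adjusted p = 0.0961). The lower filter was passed by 11 of the 19 myeloid markers. Of these, both cKO scores were above both control scores for 7 and below them for 0, against 27.7% and 27.8% of all genes past that filter. With the markers below that filter included, 9 of the 19 were higher and 0 lower. Summed over the 19 markers, the scores were 0.226 and 0.195 in the controls, against 0.261 and 0.252 in cKO samples. Most of this sum was Itgam (0.135 to 0.158, log2 fold change 0.00, groups overlapping), and without Itgam the sums were 0.0848 and 0.0447 in the controls, against 0.127 and 0.0942 in cKO samples. Csf1r, the receptor for macrophage colony-stimulating factor, was at 0.00261 and 0.00183 in the controls, against 0.00345 and 0.00305 in cKO samples. S100a9 and Elane were listed at 0 in all samples. Within both groups sample 1 exceeded sample 2 for Cd14, Tlr2 and 8 of the 19 myeloid markers, Lyz1, Lyz2, Cd68 and Csf1r among them. The order was the opposite in both groups for 2 (Emr1 and Itgam), and the other 9, among them Fcer1g and Tyrobp, had neither order in both groups. The 8 markers with sample 1 higher included Fcgr1, with scores of at most 9e-05, and S100a8, with scores of at most 0.00101. Lyz1 and Lyz2 share read-length windows, 26.3% of those of Lyz1 and 25.3% of those of Lyz2. The share of all genes with the same order in both groups was not measured. The part of myeloid RNA in the values of Cd14 and Tlr2 was not tested.

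**Figure D4:**
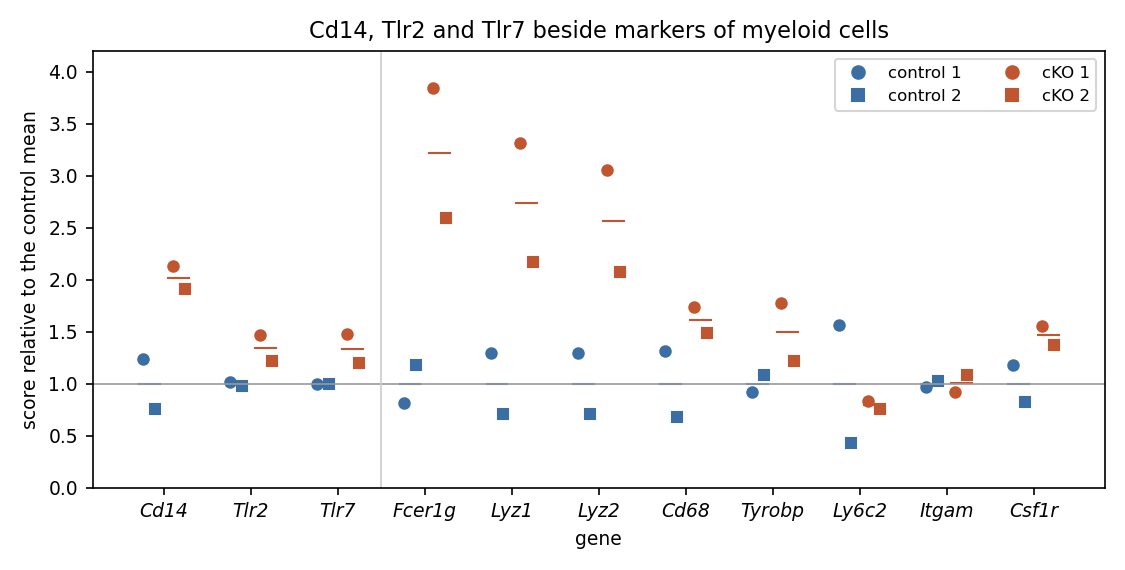
Score relative to the control mean for Cd14, Tlr2 and Tlr7 and for the 7 myeloid markers past the filter with Csf1r, in the 2 control (blue) and 2 cKO (orange) samples, with short bars for group means. Fcer1g, Lyz1 and Lyz2 stand farthest above the controls in cKO samples, while Itgam lies near 1 in all samples.

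Most markers of T and NK cells, 11 of 14, stayed below 0.001 in all samples. Of the 3 past the lower filter, both cKO scores were above both control scores for 2 (Lck and Nkg7) and below them for 0. The shares of all genes past that filter were 27.7% and 27.8%. With the markers below that filter included, 6 of the 14 were higher and 2 lower. Cd3e had scores of 0 and 4e-05 in the controls, against 7e-05 and 0.0002 in cKO samples. Itgax had scores of 0.00002 to 0.00026. The 14 T and NK cell markers summed to 0.0359 and 0.0476 in control samples and to 0.0757 and 0.0694 in cKO samples. Most of this was Lck, which exceeded 85.1 to 94.0% of the genes with a score above 0 in a sample and whose scores were 0.0318 and 0.0437 in the controls, against 0.069 and 0.0636 in cKO samples. The 8 dendritic cell markers summed to 0.0081 and 0.01 in control samples and to 0.0121 and 0.0117 in cKO samples. Their part in the values of the receptor genes was not tested.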

How the data were processed

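By the study's methods, poly(A) RNA was sequenced and reads were mapped to mm9 with TopHat (TopHat2 2.0 and CASAVA 1.8 in the submitters' processing notes), low-quality, rRNA and tRNA reads were removed, and the authors deposited a score per gene and sample. The step from reads to this score is not given in the sources used here, and the score is not a count. From the deposited scores, a linear model per gene was fitted with limma 3.58.1, R 4.3.3 (lmFit and eBayes with trend) on log2(score + 0.0001), over 9727 genes whose score reached 0.005 in some sample, with Benjamini-Hochberg adjustment and a threshold of 0.05. Intervals are limma's 95% intervals. Because the test was run across all genes, single genes near the threshold are uncertain: in 10 simulated data sets of 9727 genes, 95.1% of genes changed 2-fold were recovered and 9.69% of the calls were false on average. The simulated noise was normal, independent between genes and of the variance that limma had fitted, and 200 genes were changed. These figures do not cover the fit with the lower filter. In that fit Tlr4, Ly96 and Cd14 would have been called only from 2.24-fold, 2.61-fold and 3.19-fold.

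Genes were placed on NCBIM37 by the GENCODE annotation, which also gave exon lengths for inferred reads and the read-length windows that transcripts share. Summaries were made in Python 3.11.15 (scipy 1.17.1, numpy 2.4.6, pandas 2.3.3). The genes and lists were chosen with earlier results of these data known. Of the other pathway genes, every Toll-like receptor and trafficking gene scoring 0.001 or more and every gene called was named, and further myeloid, T and NK cell markers and overlapping genes were named after their values had been seen. Samples are given as separate by the labels, which do not say whether they came from separate mice, so p-values measure only the spread between these samples. Of the 9727 genes, 18 had identical scores in the 2 control samples and 20 in the 2 cKO samples, and the median difference within a pair was 1.09-fold and 1.08-fold. Same-numbered samples did not deviate together (Pearson -0.145 across genes, which are not independent), and no block was used. Alternatives were other pseudocounts, filters, scalings, variance models and pairings, and leaving out each sample. A further B-lineage marker and a further myeloid marker, beyond the 10 and 19 used, are not reported here.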

Additional observations from a re-analysis of the deposited data

How the results depend on the processing

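Of the 10 genes 0 were called in any alternative limma fit that tested them, and their lowest limma adjusted p over all alternatives was 0.0719, for Cd14 with the lower filter and the replicate number as a block. In these fits the smallest number of genes at an unadjusted p under 0.05 was 556. All genes called numbered 122 lower and 79 higher. With no filter 0 and 0 were called (3203 at an unadjusted p under 0.05), without the variance trend 22 and 11, with the filter above 0.05 the count of higher genes was 35, and with the replicate block it was 177. The crossed replicate block, added after the data were seen because same-numbered samples correlated below -0.1, gave 230 lower, 212 higher and 3 pathway genes. Leaving out a sample gave from 0 to 391 genes lower, from 0 to 439 higher and from 0 to 7 pathway genes, with 0 without either cKO sample (947 and 1749 at an unadjusted p under 0.05) and the most without control 2. Such a fit has 1 sample in a group, assumed to vary like the other group. For pathway genes the count of 1 became 0 with no filter, without the trend and by the ratio of 2-fold, and the replicate block left it at 1. The cause was not tested. The sign turned for Unc93b1 with quantile normalization (log2 fold change 0.036), and with a sample left out for Ly96 (-0.020 to 0.48), Myd88 (-0.039 to 0.13), Cnpy3 (-0.013 to 0.028) and Lrrc33 (-0.040 to 0.13), all uncalled. Over 24 named genes, 313 of 333 values under alternatives kept their direction and side of the threshold, 8 were weaker and 5 stronger. Depth limits Ly96 and Cd14 most.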
